A study of Mus musculus with 10 samples.

Results

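The constitutive proteasome subunits were taken as the genes whose symbol is Psma, Psmb, Psmc, Psmd, Psme, Psmf or Psmg followed by a number, without the interferon-induced genes Psmb8, Psmb9, Psmb10, Psme1 and Psme2. A gene also had to reach 1 TPM (transcripts per 1e6 transcripts, a length-corrected level) in at least 3 of 10 libraries. Of 24421 gene symbols, 50 matched the pattern, 5 were left out by name and 44 were members. The remaining match, Psmb11, which encodes a catalytic subunit of the thymus, reached 1 TPM in 0 libraries. The name did not hold for 2 of the 44 members. Psmc3ip encodes a protein of meiotic recombination and no proteasome subunit, and Psme2b is a near copy of the interferon-induced Psme2 with which it may share reads, so that the value of each is uncertain. Psma8 encodes an alpha subunit of the testis. The other 41 members encode 31 subunits of the 26S proteasome, 3 activators or inhibitors and 7 assembly chaperones.

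Libraries were made from Ly6Chigh monocytes sorted from the spleen on day 5 after surgery. They came from C57BL/6 wild type (WT) mice after sham surgery (n = 3), from such mice after myocardial infarction (MI, n = 3, replicates 2, 3 and 4) and from Foxp3DTR mice after MI (n = 4). The animals were male mice 8 to 10 weeks of age. Infarction was induced by permanently closing the left anterior descending artery, sham operations went as far as opening the chest, and the analgesic was buprenorphine. In Foxp3DTR mice the Foxp3 promoter drives a human receptor for diphtheria toxin, so that the toxin kills regulatory T-cells (Treg), and the depletion in the study was partial. For Treg ablation the labels give 500 ng of toxin per mouse on days 2 and 1 before surgery and 250 ng on day 2 after it. In the study's text the WT mice set against Foxp3DTR mice also had the toxin, while the labels do not give this sample by sample. Monocytes were sorted as CD11b+ Ly6G- F4/80+ Ly6Chigh CD115+ cells after depletion of T- and B-cells, and 20 to 50 pg of RNA entered each library. The labels name no batch, and separate animals are taken from the study's text.

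The proteasome degrades proteins that carry ubiquitin. Its barrel-shaped core consists of outer rings of alpha subunits and inner rings of beta subunits, of which Psmb5, Psmb6 and Psmb7 carry the catalytic sites. A regulatory particle, built from ATPases that unfold the substrate and from subunits that bind and remove ubiquitin, opens the core. In cells exposed to interferon-γ, and at rest in many immune cells, Psmb8, Psmb9 and Psmb10 take the place of the catalytic subunits in newly built cores, which are then called immunoproteasomes and favour peptides for antigen presentation.

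The tables corresponded to 3.13 to 8.40 M reads (M, 1e6) per library, the lowest depth being that of sham library 2. All 8 markers of Ly6Chigh monocytes were present in each library, with sums of 5472 to 8944 TPM after sham surgery, 6235 to 8059 TPM in WT mice after MI and 10330 to 12843 TPM in Foxp3DTR mice. Sham library 3 stood apart by its T-cell markers (158 TPM against 19.6 and 31.7 TPM in the other sham libraries) and its neutrophil markers (1359 against 382 and 335 TPM). Fold changes were computed with limma on log2(TPM + 1) after scaling each library by a median-of-ratios factor, and a gene was called at a Benjamini-Hochberg adjusted p under 0.05 over 12938 genes. On this scale the changes of weakly expressed genes appear too small. Scaled changes are relative to the median gene, which without scaling shifted by 0.22 from WT to Foxp3DTR mice after MI and by -0.17 from sham surgery to MI.

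In splenic monocytes most members were expressed above the typical gene. The mean over 10 libraries exceeded 20 TPM in 40 of 44 members, and 38 of 44 were at or above the median of all tested genes (21.7 TPM). Psma7, an alpha subunit, was the highest at 249 TPM, followed by the uncertain Psme2b at 225 TPM and by Psmd8, a subunit of the lid of the regulatory particle, at 223 TPM. The lowest were Psmd9, a chaperone of the ATPases, at 13.3 TPM, Psmc3ip at 3.61 TPM and Psma8 at 1.93 TPM. Neighbours in the order of levels mostly differed by less than their spread between libraries, which was 10.4 to 28.4% of the mean (coefficient of variation of scaled TPM over 10 libraries) among the 41 genes without Psma8, Psmc3ip and Psme2b. Among the catalytic subunits Psmb7 was at 107 TPM, Psmb6 at 85.5 TPM and Psmb5 at 43.6 TPM. Alpha subunits made up 26.9 to 29.0% of the summed TPM of the 41 genes, catalytic beta subunits 6.03 to 6.69%, ATPases 10.9 to 12.5%, chaperones 4.98 to 6.05% and activators with the inhibitor 3.89 to 5.06%. Structural beta subunits made up 17.6 to 18.5% after sham surgery, 19.3 to 20.9% in WT mice after MI, without overlap, and 17.7 to 20.3% in Foxp3DTR mice. The 11 other subunits of the regulatory particle made up 23.2 to 24.2% in WT mice after MI, 24.4 to 25.6% in Foxp3DTR mice and 24.96 to 25.7% after sham surgery, so that WT mice after MI overlapped with neither other group in this share.

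**Figure D1:**
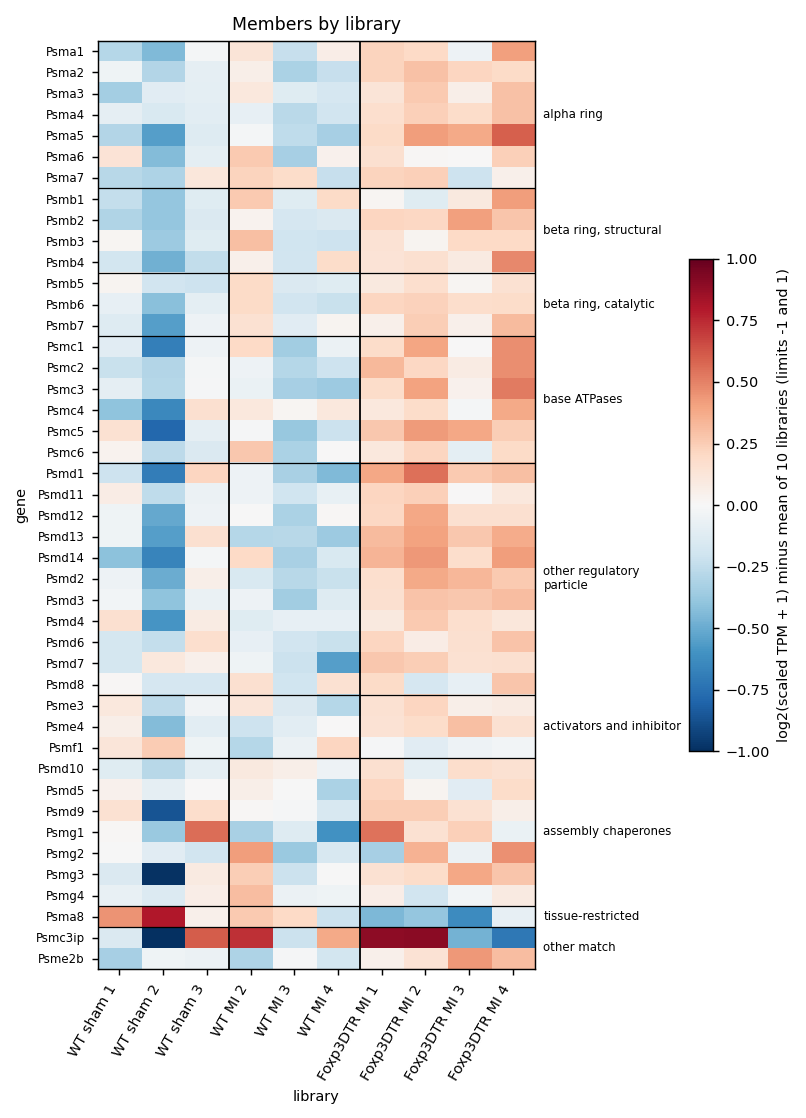
Colour gives log2(scaled TPM + 1) of each of the 44 members (rows, by role) in each of 10 libraries (columns) minus the mean of the gene over all libraries, with the colour scale ending at -1 and 1. Most members are above their mean in the 4 Foxp3DTR libraries and below it in sham library 2, while Psma8 has its highest values after sham surgery and Psmc3ip varies without regard to group.

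The members' genes lie on 16 chromosomes, 10 of them on chromosome 11. Promoter sequences from RefSeq (build GRCm38.p6, 250 bases before to 50 after the start of transcription) were found for 36 of 44 members. None was found for Psma8, Psmb1, Psmb2, Psmb7, Psmc3, Psmd3, Psmd7 and Psmg2. The ETS core motif CCGGAAG, on either strand, was present in 15 of 36 members (41.7%), in 9.93% of all 27025 genes with a promoter and in 20.5% of the 9409 that were tested. The CCAAT box (CCAAT) was present in 36.1% of members, 41.1% of all genes and 43.1% of tested genes. The core of the antioxidant response element, TGACNNNGC, was present in 16.7% of members, 14.0% of all genes and 17.1% of tested genes. Of 6 such members, Psmb5 and Psmb6 are catalytic subunits, and the others were Psmc6, Psmd9, Psmd12 and Psme4. The matches describe letters in these windows and no binding was measured.

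Shown first, from 150 bases before to 10 after the start, is the promoter of Psma4, the member called between Foxp3DTR and WT mice after MI, in which none of the 3 motifs was found. It is followed by 5 promoters, chosen after the values were seen, with an ETS core (capitals, either strand) of members with no overlap between WT and Foxp3DTR libraries after MI, and by those of Psmb5 and Psmb6 with the antioxidant response element core (capitals), since these encode catalytic sites. In Psmd13 the motif begins 6 bases before the start and in Psmd2 26 bases before it, in Psmd6 45, in Psmg1 69 and in Psmc2 84 bases before it, at the first of its RefSeq starts. Psma6, Psmc1, Psmc3ip, Psmc6, Psme3 and Psmg3 also have an ETS core, but their scaled TPM overlapped between these groups. Without overlap and without an ETS core in these windows were Psma2, Psma4, Psma5, Psmc5, Psmd1, Psmd9 and Psme2b. A link between the motif and the change was not tested.
Psma4, chr9:54950709-54950868, plus strand: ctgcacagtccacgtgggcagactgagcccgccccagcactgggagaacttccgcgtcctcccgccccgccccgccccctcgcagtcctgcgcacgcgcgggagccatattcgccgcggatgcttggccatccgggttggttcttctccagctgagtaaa
Psmd13, chr7:140882244-140882403, plus strand: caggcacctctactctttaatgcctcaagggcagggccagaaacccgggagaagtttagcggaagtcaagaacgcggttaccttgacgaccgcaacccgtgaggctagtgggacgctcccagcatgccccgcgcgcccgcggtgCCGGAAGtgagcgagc
Psmd2, chr16:20651502-20651661, plus strand: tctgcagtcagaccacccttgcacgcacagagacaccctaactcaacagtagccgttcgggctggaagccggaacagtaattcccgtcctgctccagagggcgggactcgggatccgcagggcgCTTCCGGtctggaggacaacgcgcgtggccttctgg
Psmc2, chr5:21785125-21785284, plus strand: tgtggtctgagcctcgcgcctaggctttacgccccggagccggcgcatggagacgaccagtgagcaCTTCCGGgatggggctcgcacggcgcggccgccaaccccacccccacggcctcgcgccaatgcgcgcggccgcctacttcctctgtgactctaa
Psmd6, chr14:14120936-14121095, minus strand: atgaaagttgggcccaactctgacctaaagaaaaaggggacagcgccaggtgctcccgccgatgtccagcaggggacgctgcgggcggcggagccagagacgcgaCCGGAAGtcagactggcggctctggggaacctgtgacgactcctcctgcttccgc
Psmg1, chr16:95990951-95991110, minus strand: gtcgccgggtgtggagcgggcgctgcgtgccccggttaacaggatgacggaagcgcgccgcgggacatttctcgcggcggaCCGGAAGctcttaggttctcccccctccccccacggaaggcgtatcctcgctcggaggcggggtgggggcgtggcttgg
Psmb5, chr14:54617986-54618145, minus strand: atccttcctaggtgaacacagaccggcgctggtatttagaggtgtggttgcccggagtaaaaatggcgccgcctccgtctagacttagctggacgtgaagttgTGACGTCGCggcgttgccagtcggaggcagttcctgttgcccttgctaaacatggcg
Psmb6, chr11:70525207-70525366, plus strand: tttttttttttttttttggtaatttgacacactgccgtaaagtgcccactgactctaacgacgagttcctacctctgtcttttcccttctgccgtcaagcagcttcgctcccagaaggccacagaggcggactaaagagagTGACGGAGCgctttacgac

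The first comparison asked how monocytes of Treg-depleted mice differed from those of WT mice after MI. The summed TPM of the 44 members was 3752, 3253 and 3125 in WT libraries 2, 3 and 4 and 4955, 5031, 4555 and 4454 in Foxp3DTR libraries 1 to 4. These groups did not overlap, with means of 3377 ± 331 TPM (SD, n = 3) and 4749 ± 287 TPM (SD, n = 4), a ratio of 1.41. After sham surgery the sum was 3560 ± 512 TPM (SD, n = 3). With scaled values the ratio was smaller at 1.19, with 3435 to 4083 in WT and 4217 to 4708 in Foxp3DTR mice. In bulk samples, more cells with high levels and more RNA per cell cannot be told apart.

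**Figure D2:**
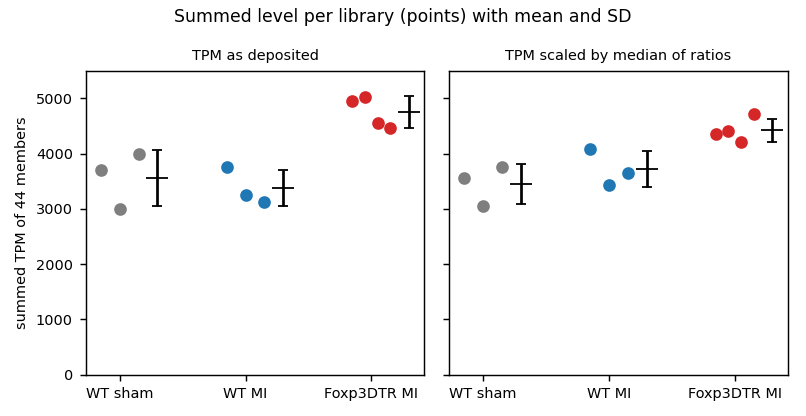
Points give the summed TPM of the 44 members in each library, as deposited (left) and scaled by median of ratios (right), with the mean and SD of each group beside them. Foxp3DTR libraries lie above all WT libraries in both panels, by a ratio of means of 1.41 on the left and 1.19 on the right against WT mice after MI.

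Of 44 members 1, Psma4, was called higher and 0 lower in Foxp3DTR mice, where 1.12% of all tested genes were called in either direction. A positive log2 fold change was found in 39 of 44 members, against 50.1% of all genes, and the members' median was 0.25 (all genes 0.00080). An unadjusted p under 0.05 on the higher side was found for 21 members (47.7%) and for 9.31% of all genes. On the lower side it was found for 0 members and for 1090 of 12938 genes. All 4 Foxp3DTR libraries exceeded all WT libraries in scaled TPM in 20 members (45.5%) and in 9.97% of all genes. In TPM without scaling, 12 members were called higher (3.77% of all genes), 43 had a positive log2 fold change (75.7% of all genes) and the median was 0.49 (all genes 0.22). The medians of the classes were 0.43 for the other regulatory particle subunits, 0.39 for ATPases, 0.25 for alpha subunits, 0.23 for activators and inhibitor, 0.19 for structural beta subunits, 0.17 for chaperones and 0.15 for catalytic subunits. No test compared the classes.

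**Figure D3:**
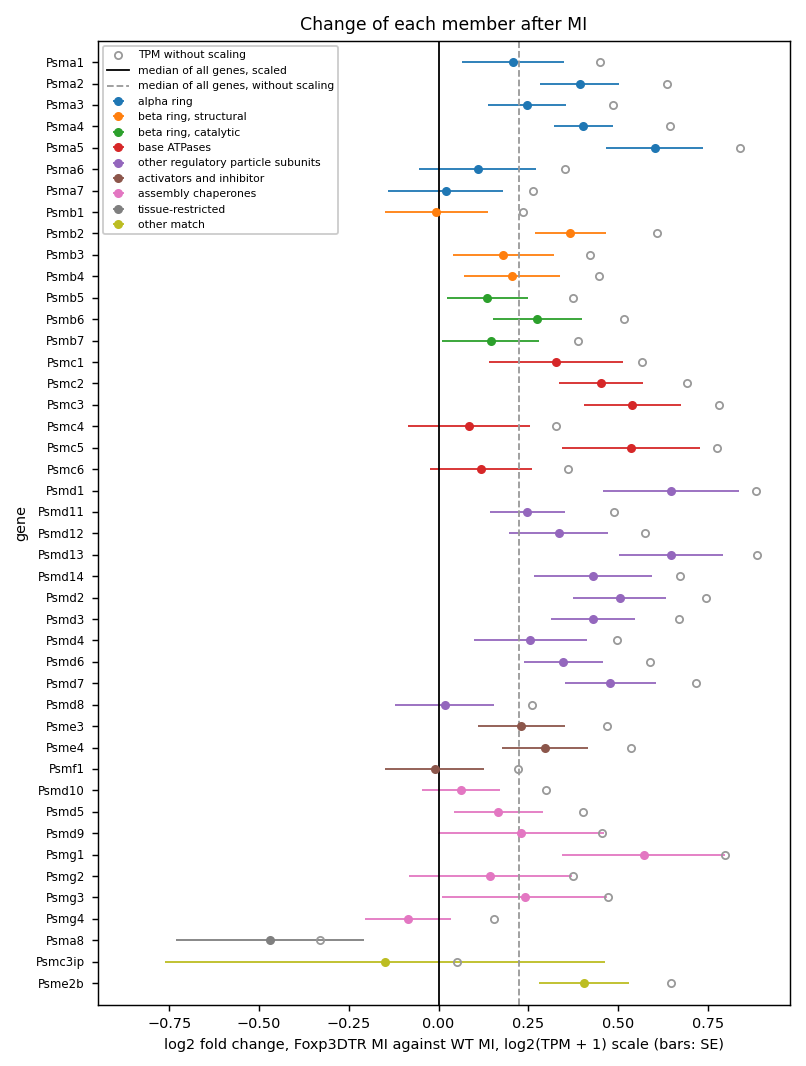
Filled points give the log2 fold change of each member between Foxp3DTR and WT mice after MI in scaled TPM (bars, SE of the fit), coloured by role, and open points that in TPM without scaling; lines mark the median of all genes, 0.00080 scaled and 0.22 without scaling. Most filled points lie to the right of the solid line, from -0.47 (Psma8) to 0.65 (Psmd13 and Psmd1).

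Alpha subunits form the outer rings and the gate of the core. Psma4 (chromosome 9, 54950859 to 54958030, plus strand, mm10) was at 125, 113 and 108 TPM in WT libraries after MI and at 184, 194, 177 and 167 TPM in Foxp3DTR libraries. These groups did not overlap, and as deposited the sham libraries lay between them at 140, 127 and 142 TPM. In scaled TPM the sham libraries, at 135, 130 and 134, overlapped with the WT libraries after MI (136, 119 and 126). Psma4 rose with a log2 fold change of 0.40 (SE 0.08, limma adjusted p = 0.0498), a value just under the threshold. Its promoter is the first of those shown above. It was called in 7 of 22 other planned settings, with adjusted p from 0.0144 to 0.147. The call ended on leaving out any 1 of the WT or Foxp3DTR libraries after MI or sham library 1. Over the 22 settings the log2 fold change was between 0.36 and 0.64. Psma5 (chromosome 3, 108256926 to 108279952) was at 46.2, 40.3 and 34.5 TPM in WT mice and at 66.5, 78.3, 72.1 and 73.7 TPM in Foxp3DTR mice, also without overlap. The log2 fold change of 0.60 (SE 0.14) had an adjusted p of 0.061. The other 5 alpha subunits had log2 fold changes from 0.02 (Psma7) to 0.39 (Psma2), and all 7 were positive.

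Structural beta subunits hold the inner rings together without a catalytic site. Psmb2 (chromosome 4, 126677643 to 126709715) was at 163, 145 and 133 TPM in WT mice after MI and at 228, 227, 247 and 198 TPM in Foxp3DTR mice, again without overlap. The change of 0.37 on the log2 scale (SE 0.10) had a limma adjusted p of 0.100. Psmb4 was at 204, 178 and 209 TPM and at 269, 275, 247 and 284 TPM, a log2 fold change of 0.20 (adjusted p = 0.453). The groups of Psmb4 were apart in TPM as deposited but overlapped after scaling. Psmb1 had a log2 fold change of -0.01, at 201 ± 24.1 TPM in WT and 236 ± 17.4 TPM in Foxp3DTR mice.

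Between Foxp3DTR and WT mice after MI, log2 fold changes of the constitutive catalytic subunits were 0.13 to 0.28, beside a members' median of 0.25. Psmb5, the chymotrypsin-like site and the target of bortezomib, was at 45.0, 36.5 and 33.7 TPM in WT mice after MI and at 52.2, 55.0, 46.8 and 45.2 TPM in Foxp3DTR mice. The log2 fold change of Psmb5 was 0.13 (SE 0.11) with a limma adjusted p of 0.565, and the groups were only just apart in TPM as deposited and overlapped after scaling. Psmb6, the caspase-like site, was at 87.4, 68.9 and 60.9 TPM and at 110, 112, 102 and 89.6 TPM. This gave a log2 fold change of 0.28 and an adjusted p of 0.279 (SE 0.12). Psmb7, the trypsin-like site, was at 107, 91.7 and 91.2 TPM and at 123, 143, 118 and 124 TPM, with a log2 fold change of 0.15 and an adjusted p of 0.607 (SE 0.13). For Psmb6 and Psmb7 too the groups were apart as deposited and overlapped after scaling.

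The interferon-induced counterparts, which were not members, summed with Psme1 and Psme2 to 717 ± 83.8 TPM in WT mice after MI and 1249 ± 68.9 TPM in Foxp3DTR mice. Psmb8 had a log2 fold change of 0.65 (limma adjusted p = 0.052), Psmb9 one of 0.70 (0.133) and Psmb10 one of 0.60 (0.075). The ratio of an induced subunit to the constitutive one it replaces does not depend on scaling. Psmb8 to Psmb5 was 4.30, 6.16 and 5.60 in WT libraries after MI and 6.73, 7.01, 8.67 and 8.004 in Foxp3DTR libraries, which did not overlap. The difference in mean log2 ratio was 0.52 (exact permutation test, two-sided, p = 0.057, the smallest that 4 against 3 libraries allow, adjusted p = 0.257 over 9 tests). Psmb10 to Psmb7 was 1.18 ± 0.215 in WT and 1.63 ± 0.291 in Foxp3DTR mice (log2 difference 0.46, exact permutation p = 0.114, adjusted 0.257). Psmb9 to Psmb6 was 1.91 ± 0.576 and 2.503 ± 0.425 (log2 difference 0.43, exact permutation p = 0.286, adjusted 0.429), and without WT library 2 the difference was 0.15. These last 2 ratios overlapped between the groups. In WT mice the log2 differences between MI and sham surgery were 0.03, -0.22 and 0.12 for the pairs of Psmb5, Psmb7 and Psmb6 (exact permutation p = 0.900, 0.500 and 0.900, the smallest possible being 0.100). Between Foxp3DTR mice and sham surgery they were 0.54, 0.24 and 0.54 (exact permutation p = 0.114, 0.286 and 0.114). Psmb8 to Psmb5 was 4.23, 4.80 and 6.89 in sham libraries, which overlapped with both other groups.

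**Figure D4:**
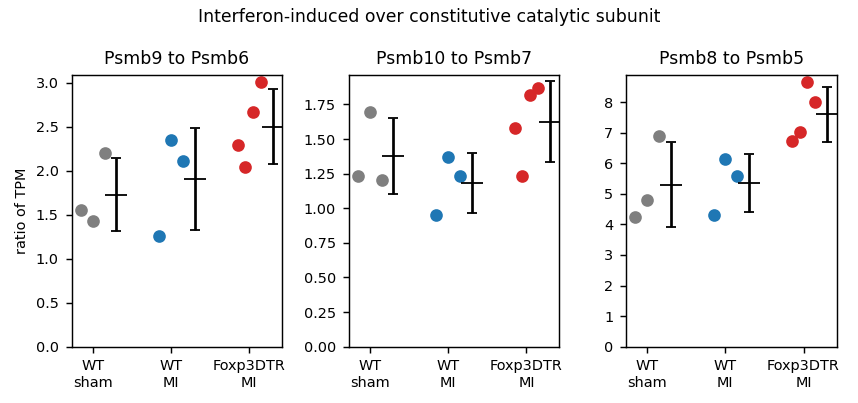
Points give the ratio of the TPM of an interferon-induced catalytic subunit to that of the constitutive subunit it replaces in each library, with the mean and SD of each group beside them and axes that start at 0. For Psmb8 to Psmb5 the Foxp3DTR libraries (6.73 to 8.67) lie above all WT libraries after MI (4.30 to 6.16), and sham libraries (4.23 to 6.89) overlap with both. For the other pairs the groups overlap.

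ATPases form the ring that pulls the substrate into the core. Psmc3 (chromosome 2, 91054016 to 91059438) was at 60.8, 51.7 and 45.9 TPM in WT mice after MI and at 89.3, 105, 77.01 and 94.4 TPM in Foxp3DTR mice. The log2 fold change of Psmc3 was 0.54 (SE 0.14), at a limma adjusted p of 0.081. Psmc2 (chromosome 5, 21785283 to 21803784) was at 54.0, 47.1 and 45.1 TPM and at 87.0, 80.7, 69.7 and 80.1 TPM, with a log2 fold change of 0.45 and an adjusted p of 0.091 (SE 0.12). Neither gene overlapped between these groups, and all 6 ATPases were positive, from 0.09 (Psmc4) to 0.54.

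The other subunits of the regulatory particle recognise ubiquitin, cut it off or hold the particle together. They had the highest median of the classes between Foxp3DTR and WT mice after MI, but not against sham surgery (below). Of 11 genes, 9 had an unadjusted p under 0.05 on the higher side (47.7% of members, 9.31% of all genes). In 9 the scaled TPM of the groups after MI lay apart (45.5% of members, 9.97% of all genes). Psmd13 (chromosome 7, 140882394 to 140898642), a lid subunit, was at 45.2, 47.0 and 40.0 TPM in WT libraries and at 85.7, 91.2, 78.6 and 73.9 TPM in Foxp3DTR libraries. Each Foxp3DTR library was thus far above each WT library, and the sham libraries spread over 40.2 to 71.9 TPM. The log2 fold change of Psmd13 was 0.65 (SE 0.15, limma adjusted p = 0.061). Psmd2 (chromosome 16, 20651652 to 20663414), a scaffold of the base that docks ubiquitin carriers, was at 54.0, 50.9 and 47.8 TPM and at 83.7, 97.7, 89.1 and 74.5 TPM. For Psmd2 the log2 fold change was 0.50 and the adjusted p 0.086 (SE 0.13). The lowest of the class was Psmd8 at 0.02, with 205 ± 22.6 TPM in WT and 246 ± 29.0 TPM in Foxp3DTR mice.

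Activators open the core in place of the regulatory particle. Psme4, or PA200, was at 61.0, 67.5 and 66.0 TPM in WT mice after MI and at 96.5, 99.5, 102 and 80.8 TPM in Foxp3DTR mice, without overlap. For Psme4 the log2 fold change was 0.30 and the limma adjusted p 0.235 (SE 0.12). Psme3, the nuclear activator PA28γ, was at 54.6 ± 9.68 and 75.7 ± 9.31 TPM (0.23, adjusted p = 0.353), and Psmf1, the inhibitor PI31, had a log2 fold change of -0.01.

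Chaperones assemble the rings and do not stay in the finished proteasome. Psmg1, which pairs with Psmg2 to build the alpha ring, was at 11.9, 14.2 and 8.99 TPM in WT mice after MI and at 27.9, 21.1, 21.2 and 14.8 TPM in Foxp3DTR mice. The groups lay just apart, with a log2 fold change of 0.57 (SE 0.23) and a limma adjusted p of 0.228 at a low level. Psmd5, a chaperone of the base, was at 30.3 ± 5.46 and 40.1 ± 4.95 TPM (0.17, adjusted p = 0.519), and Psmg4 had a log2 fold change of -0.08. In total 6 of 7 chaperones were positive.

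The 3 members outside these classes went different ways. Psma8 was at 2.18, 2.12 and 1.22 TPM in WT mice after MI, at 1.20, 1.32, 0.887 and 1.56 TPM in Foxp3DTR mice and at 2.94, 3.82 and 2.03 TPM after sham surgery. Its log2 fold change was -0.47 against WT mice after MI (limma adjusted p = 0.378). Psme2b was at 177 ± 24.0 and 276 ± 29.4 TPM (0.40, adjusted p = 0.142), beside 82.7 ± 5.82 and 129 ± 12.4 TPM for Psme2, with which it may share reads. Psmc3ip was listed at 0 in sham library 2 and reached 7.15 TPM in Foxp3DTR library 2. Its log2 fold change of -0.15 had an SE of 0.61, and it was 0.05 in TPM without scaling and ranged from -0.41 to 0.14 on leaving out 1 library.

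Several lists of markers of other cells and of dividing cells had higher sums in Foxp3DTR than in WT libraries after MI. The sum of 6 dividing-cell markers was 303, 80.6 and 107 TPM in WT libraries 2, 3 and 4 and 451, 557, 212 and 373 TPM in Foxp3DTR libraries. It was 85.8, 89.5 and 224 TPM in sham libraries 1, 2 and 3. WT library 2, which had the highest sum of these markers in its group, also had the highest summed level of the 41 genes, with 38 of 41 above their group mean. Sham library 3 likewise had the highest values of its group in both, with 36 of 41 genes above their group mean. Among Foxp3DTR libraries the outcome depended on the scaling. Library 2 had the highest marker sum and, in TPM as deposited, the highest sum of the 41 genes (4748 TPM). In scaled TPM library 4 had the highest sum of the 41 genes (4435, against 4153 in library 2). Sham libraries 1 and 2 had close marker sums but differed in the level of the 41 genes. Their scaled sums were 3378 and 2829, with 30 and 3 of 41 genes above their group mean. Sham library 3 also had the highest T-cell and neutrophil marker sums of its group. WT library 2 and Foxp3DTR library 4 had the highest neutrophil marker sums of theirs. In each group the library with the highest scaled sum of the 41 genes was thus the one with the highest neutrophil marker sum. Neutrophil markers, 10 of 10 listed in the tables, summed to 143 to 389 TPM in WT mice after MI and 1218 to 2524 TPM in Foxp3DTR mice, and T-cell markers (8 of 11 listed in the tables) to 14.5 to 18.3 and 40.2 to 130 TPM. NK cell markers (7 of 7) summed to 29.0 to 59.7 and 96.3 to 178 TPM, and plasma cell markers (5 of 6) to 25.4 to 36.3 and 56.8 to 138 TPM. Listed at 0 in some libraries were Cd3e, Cd3g and Cd4 of the T-cell markers, Camp, Ltf, Retnlg, Mmp9 and Cxcr2 of the neutrophil markers and Tnfrsf17 and Mzb1 of the plasma cell markers. With the dividing-cell markers as a covariate, a setting chosen after seeing the data, the median of the members was 0.07 with 30 of 44 positive. With neutrophil markers it was 0.0055 with 23 positive, and with T-cell markers 0.21 with 36 positive, and 0 members were called in these 3 fits, in which 0, 1 and 0 of all 12938 genes were called. Neutrophil and T-cell marker sums of the WT and Foxp3DTR libraries after MI lay apart, so that these fits cannot tell marker RNA and group apart. Beyond these fits the part of the markers in the result was not tested.

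**Figure D5:**
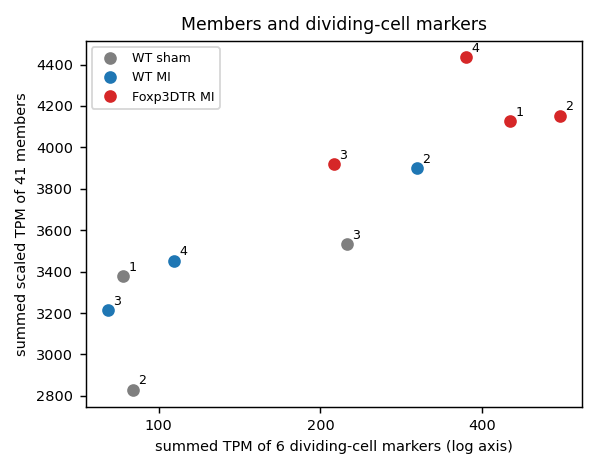
Each point is a library (replicate number beside it), placed by the summed TPM of 6 dividing-cell markers (log axis) and the summed scaled TPM of the 41 genes (axis does not start at 0). WT MI library 2 (303 TPM) and sham library 3 (224 TPM) stand to the right of and above their own groups, and all Foxp3DTR libraries are at 212 TPM or more.

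Leaving out WT library 2 gave a members' median of 0.34 between Foxp3DTR and WT mice after MI, with 42 of 44 positive, and leaving out WT library 3 gave 0.21 with 35 positive. The count of called members was 7 without sham library 2, 4 without sham library 3 and 0 without any other library. Of all genes 145 were called with every library in the fit, 432 without sham library 2, 421 without sham library 3 and 0 to 127 without any other. With only the groups compared in the fit 7 members (Psma4, Psma5, Psmc5, Psmd1, Psmd2, Psmd3 and Psmd13) and 578 of all genes were called.

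The second comparison asked what MI changed in monocytes of WT mice. Of 44 members 0 were called, as were 0% of the 12938 genes (limma). An unadjusted p under 0.05 on the higher side was found for 2 members, against 2.2% of all genes. On the lower side it was found for 0 members and 316 of all genes. Psmb1 was at 180, 154 and 200 TPM after sham surgery and at 226, 178 and 200 TPM after MI, a log2 fold change of 0.36 (adjusted p = 0.960) with overlap between groups. Psmb4 was at 197, 151 and 193 TPM and at 204, 178 and 209 TPM, a log2 fold change of 0.32 (adjusted p = 0.960), also with overlap. The groups did not overlap on the higher side in 1 member, the chaperone Psmd10 (0.20), against 3.18% of all genes. On the lower side this was so in 0 members and 482 of all genes. Psma4 had a log2 fold change of -0.07, Psmb5 of 0.10, Psmb6 of 0.12 and Psmb7 of 0.26. The medians of the classes were 0.25 for structural beta subunits and 0.12 each for catalytic subunits, alpha subunits and chaperones. They were 0.08 for ATPases, -0.03 for the other regulatory particle subunits and -0.04 for activators and inhibitor. The median over the members was 0.10 (all genes -0.0018) with 27 of 44 positive (49.6% of all genes). The sign of the members' median was not stable, at -0.08 in TPM without scaling and at -0.01 without sham library 2 or WT library 2 or with array weights.

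Foxp3DTR mice after MI against sham surgery mix genotype, Treg depletion and infarction, and share libraries with both other comparisons. Psmb2, at 145, 129 and 166 TPM after sham surgery and 225 ± 20.5 TPM in Foxp3DTR mice, was the 1 member called (log2 fold change 0.55, SE 0.10, limma adjusted p = 0.0494), where 0.541% of all genes were called. The call of Psmb2 was found in 5 of 22 other planned settings (adjusted p from 0.0166 to 0.171) and ended on leaving out any 1 library but sham library 3. Psma5 had the next lowest p, with 43.2, 34.0 and 49.6 TPM after sham surgery and a log2 fold change of 0.72 (adjusted p = 0.051). A positive log2 fold change was found in 42 members (49.0% of all genes), with a median of 0.36 (all genes -0.0090). The medians of the classes were 0.45 for ATPases, 0.44 for structural beta subunits and 0.42 for the other regulatory particle subunits. They were 0.40 for catalytic subunits, 0.37 for alpha subunits, 0.20 for chaperones and 0.19 for activators and inhibitor. The classes were again not compared by a test. An unadjusted p under 0.05 on the higher side was found in 26 members (10.2% of all genes). In 25 members all Foxp3DTR libraries exceeded all sham libraries (9.8% of all genes). Psma8 went the other way, with a log2 fold change of -0.82 (adjusted p = 0.149) and all Foxp3DTR libraries below all sham libraries. Without sham library 3, which stood apart by its markers, 8 members were called, and 634 of all genes in place of 70.

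Other genes that build, regulate or feed the proteasome were read from a list of 40 symbols, which stand for 36 genes. Of these 35 were tested, and between Foxp3DTR and WT mice after MI 0 were called, 21 were positive and the median was 0.11. An unadjusted p under 0.05 was found for 8 on the higher side and for 1 on the lower. Of these 8, 5 were the interferon-induced genes left out by name (Psmb8, Psmb9, Psmb10, Psme1 and Psme2), and of the other 30 genes 3 (Uchl5, Vcp and Uba1, 10%) were on the higher side, beside 9.31% of all genes. Those of lowest p were Psmb8 and Psmb10 (above) and Uba1, the main enzyme that activates ubiquitin. Uba1 was at 101 ± 6.85 TPM in WT and at 163 ± 11.5 TPM in Foxp3DTR mice, a log2 fold change of 0.45 (limma adjusted p = 0.087). Between MI and sham surgery 0 of 35 were called (1 at an unadjusted p under 0.05), and between Foxp3DTR mice and sham surgery 1 was called, Psmb8, with a log2 fold change of 0.78 (adjusted p = 0.046).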

How the data were processed

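RNA of sorted Ly6Chigh splenic monocytes was sequenced in 10 libraries, grouped by the sample labels. Per the submitters' notes, StringTie 1.3.0, STAR 2.5, cutadapt 1.1 and CASAVA 1.4 were used with the build mm10. Reads were 50 bp and single-end. The authors deposited, per gene and library, the coverage (a signal, mean depth over exons), FPKM and TPM. The deposited TPM sums to 1e6 per library, so a change in abundant RNAs moves all others. Counts per gene were not used here, and DESeq2, the test of the study, needs them. The ratio of coverage to FPKM gave the depth, for reads of 50 bp. TPM carries no counting error, so no interval is given for single values. Rows of 1 symbol were summed. No source used here gives the strand setting, and reads of overlapping or antisense genes may be shared.

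A gene was tested where 3 or more libraries reached 1 TPM. log2(TPM / median-of-ratios factor + 1) was fitted with limma 3.58.1 (R 4.3.3, variance trend) over all 10 libraries, two-sided, with Benjamini-Hochberg adjustment. Ratios used log2 with a pseudocount of 0.1 and exact permutation tests (scipy 1.17.1, Python 3.11.15). The fit was tested on simulated data. Replicates are separate samples of the labels, and p-values measure the spread between them.

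The members, lists and alternatives were chosen with earlier results of these data known. Named were the constitutive catalytic subunits, the 2 members of lowest p per role class between Foxp3DTR and WT mice after MI, every called member and the 2 members of lowest p between MI and sham surgery. For the further pathway genes, counts and the 3 of lowest p are given. Any other gene was named after its values were seen, as the extreme of a range or as part of a small count. Alternatives were other scalings and units, pseudocounts, filters and fits, a replicate block and the removal of each library. The results of 2 marker lists are not reported here.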

Additional observations from a re-analysis of the deposited data

How the results depend on the processing

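Between Foxp3DTR and WT mice after MI, 1 member was called. The count was 12 in TPM without scaling, 8 with array weights and 7 with only the groups compared, 1 with quantile normalization or a pseudocount of 5, and 0 with FPKM, a pseudocount of 0.1, no filter, a filter at 5 TPM, no variance trend or a robust fit. Of all genes 145 were called, 527 without scaling, 398 with array weights, 578 with only the groups compared and 22 with no filter. The members' median log2 fold change of 0.25 was 0.49 without scaling. Leaving out each library gave counts from 0 to 7 and medians from 0.21 to 0.34. With dividing-cell, neutrophil or T-cell markers as a covariate, chosen after seeing the data, the count was 0 (0, 1 and 0 of all genes) and the median 0.070, 0.0055 and 0.21. Against sham surgery the count of 1 in Foxp3DTR mice was 2 with FPKM, a pseudocount of 5 or a filter at 5 TPM and 0 with quantile normalization, a pseudocount of 0.1, no filter, only the groups compared, no variance trend or any of the 3 covariates, and 0 to 8 on leaving out a library (median 0.27 to 0.41). Without scaling and with a robust fit the 1 member called was Psma5 in place of Psmb2. The median of 0.36 was 0.16 with dividing-cell and 0.15 with neutrophil markers. Between MI and sham surgery the count stayed at 0, and the median was -0.078 without scaling and -0.01 to 0.16 on leaving out a library. Signs of single genes were followed only for those named by rule. Among them signs turned for Psmc3ip (0.050 without scaling, 0.11 with array weights, -0.41 to 0.14 on leaving out a library). With covariates they turned for Psmb7 (-0.058 dividing cells, -0.35 neutrophils, -0.044 T-cells) and Psmb4 (-0.17 neutrophils). Of all 44 members, 39 were positive between Foxp3DTR and WT mice after MI in the main fit. With dividing-cell, neutrophil or T-cell markers as a covariate 30, 23 and 36 were positive, and 35 without WT library 3. The cause was not tested. On leaving out a library, the log2 ratios moved as follows. Between Foxp3DTR and WT mice after MI, Psmb9 to Psmb6 ranged from 0.15 to 0.60, Psmb10 to Psmb7 from 0.30 to 0.58 and Psmb8 to Psmb5 from 0.37 to 0.62. Between MI and sham surgery they ranged from -0.061 to 0.39, -0.33 to -0.059 and -0.12 to 0.23. Between Foxp3DTR mice and sham surgery they ranged from 0.42 to 0.73, 0.15 to 0.40 and 0.40 to 0.75. Pseudocounts of 0 and 1 and FPKM turned no sign of a ratio.

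The same replicate number did not mark a pair, since correlations of deviations between libraries of the same number ran from -0.19 to 0.19. With the replicate number as a block, 0 members were called in each comparison, with medians of 0.22, 0.10 and 0.36.

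Picogram inputs, 3 or 4 libraries per group and depths from 3.13 M reads (M, 1e6) limit the smaller differences, and low-level members such as Psma8 and Psmc3ip most.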
